A study of Mus musculus with 17 samples.

Results

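PP cells are the islet cells that make pancreatic polypeptide, the product of Ppy. They are described here in single pancreatic cells of mice given streptozotocin (STZ), which poisons the beta cells that make insulin, of untreated adults and of young mice. The cells were chosen by measured values of 5 genes. A cell was taken as a PP cell when Ppy reached at least 3000 in the deposited table of UMIs per 100000, when Ppy was at least 3 times each of Ins2, Gcg and Sst, the insulin, glucagon and somatostatin genes, and when Prss2, a trypsin gene of acinar cells, was under 1500. By this rule 154 of 2999 cells were PP cells. The same rule with Gcg, Ins2 or Sst as the own hormone gave 492 alpha, 910 beta and 128 delta cells, and 1315 cells fell in none of these 4 classes.

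Every mouse carried Ngn3-Cre; Rosa-RFP, in which Cre under the control of Ngn3, a gene of endocrine precursors, turns on a red fluorescent protein, and RFP+ cells were sorted and transferred one by one. Adult males aged 2 months received citrate buffer (Control, 3 libraries) or 1 injection of STZ at 200 mg/kg into the abdomen after a night without food. STZ-treated mice with insulin implants were sampled at days 6, 12, 30 and 42 (STZ_D6, STZ_D12, STZ_D30 and STZ_D42) and at months 2, 5 and 9 (STZ_M2, STZ_M5 and STZ_M9), with 1 library per time except 2 at day 12, and those of STZ_M9 had discontinuous implants in the last 2 months. STZ_M2_NoIns, at month 2 without implants, had 2 libraries, and young untreated mice gave 1 library on day 3 after birth (P3), 2 on day 12 (P12) and 1 on day 21 (P21). The labels give consecutive batch numbers to the libraries of a group but do not say whether they came from separate animals, so p-values below measure only the spread between libraries, which may be technical.

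Pancreatic polypeptide is released after meals under vagal control and acts on gut motility, exocrine secretion and appetite, mainly through the receptor NPY4R. Peptide YY, the product of Pyy, belongs to the same family, and the gene pair is thought to come from a tandem duplication. PP cells are the least studied of the 4 main islet cell types and lie mostly in the part of the pancreas that forms from the ventral bud, near the duodenum.

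Ppy and Pyy lay next to each other on mouse chromosome 11, both on the minus strand (RefSeq, GRCm38.p6). Ppy spanned chr11:102099931-102101319 and Pyy chr11:102106676-102107832, with 5356 bases between them and 0 other RefSeq genes wholly in that gap. Their upstream sequences are shown because Ppy defines these cells and Pyy marks them. Each run holds the 250 bases before the annotated start, 5′ to 3′ on the gene's strand, with TATAA, the core of a TATA box, in capitals. The Ppy run is chr11:102101320-102101569 and the Pyy run chr11:102107833-102108082.
Ppy: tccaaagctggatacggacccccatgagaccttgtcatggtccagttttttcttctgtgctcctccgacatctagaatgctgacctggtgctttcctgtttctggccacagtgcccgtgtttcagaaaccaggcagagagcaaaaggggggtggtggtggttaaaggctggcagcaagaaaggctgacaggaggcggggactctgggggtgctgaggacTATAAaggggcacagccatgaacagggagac
Pyy: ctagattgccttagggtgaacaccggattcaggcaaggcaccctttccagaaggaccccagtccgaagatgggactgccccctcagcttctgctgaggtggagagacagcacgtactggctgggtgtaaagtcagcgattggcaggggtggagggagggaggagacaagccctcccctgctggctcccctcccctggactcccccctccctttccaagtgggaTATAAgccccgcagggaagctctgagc
TATAA began 31 bases before the Ppy start and 27 bases before the Pyy start. Among 32841 RefSeq promoters of the same length, 4.93% held TATAA on the gene's strand within the last 50 bases. CANNTG, the letters of an E-box, was absent from the Ppy run on both strands, occurred once in the Pyy run and was present in 66.2% of promoters. TAAT, the core of many homeobox motifs, was in neither run and in 54.9% of promoters. The same window before Cd9, another marker of these cells, held 0 TATAA, 3 CANNTG and 1 TAAT, counted on both strands.

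Ppy chose the cells, so its values are a description. PP cells held a lowest of 3987, a median of 18752 and a highest of 57391 Ppy UMIs per 100000. The highest value among cells that met every criterion but the Ppy minimum was 1392. The number of Ppy UMIs per cell varied less than the scaled value, with an interquartile range of 4427 to 6092 around a median of 5296. The highest number was 7401, beside 7376 for Pyy UMIs. Whether UMIs follow the number of molecules at such levels was not tested. Across the 154 cells Ppy per 100000 had a Spearman rho of -0.82 with the cell's UMI total, whereas Ppy UMIs had 0.57. These values share the cell's depth and are given without a test. The median PP cell had 38170 UMIs, and the range was 13347 to 189240.

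The ratio to the next hormone placed many Ppy-rich cells outside the class. Of 505 cells with Ppy of at least 3000, 351 were not PP cells, 322 of them by the ratio alone, 19 by Prss2 alone and 10 by both. Of these 351, 48 met the rule for delta cells, 21 that for alpha cells and 12 that for beta cells, and 270 met none. The lowest ratio among the PP cells was 3.08, the highest among cells that failed only by it 2.97. For Prss2 the last value inside was 1448 and the first outside 1500.26. A ratio of at least 10 was reached by 96 of the 154.

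Transcripts of the other hormones were low but rarely at 0. In PP cells Ins2 ran from 23.2 through a median of 647 to 8335 per 100000, Gcg had a median of 237, Sst one of 95.1 and Prss2 one of 359. The median of Ins2 differed between libraries in PP cells and, beside them, in alpha cells. It was 3923 and 2402 in the controls' PP cells against 1947 and 1572 in their alpha cells. At STZ_D42 the medians were 102 against 52.5 and at STZ_M2 40.7 against 45.8, the lowest of all libraries in both classes. At STZ_M5 they were 3069 against 2382. Whether free insulin RNA from other cells contributes to these values was not tested.

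Pyy, which the rule did not use, was the most abundant of the other markers. Single PP cells held a lowest of 2909, a median of 12325 and a highest of 40850 Pyy UMIs per 100000, and Pyy was above Ppy in 7 of 154. Delta cells had a median of 5305 per 100000, alpha cells 1176 and beta cells 83.5. Ppy had medians of 2023 in delta, 239 in alpha and 111 in beta cells.

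**Figure D1:**
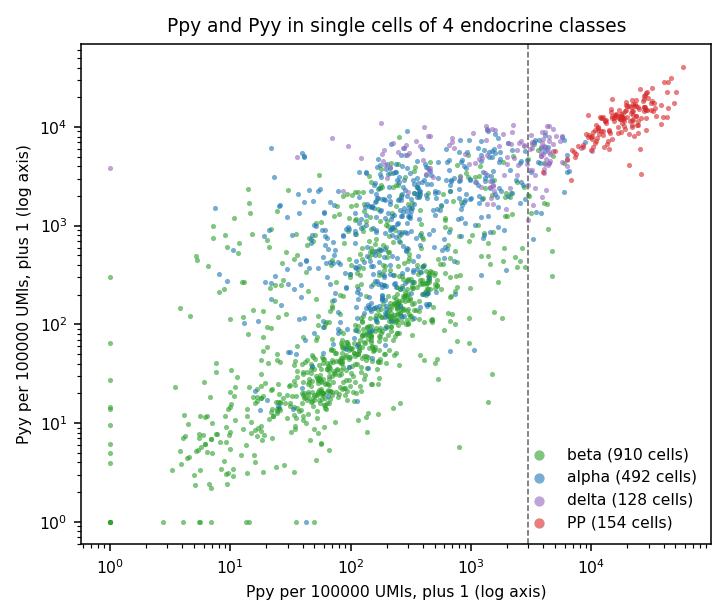
Ppy (horizontal, log axis) and Pyy (vertical, log axis) in UMIs per 100000, each plus 1, for every cell of the 4 classes. The dashed line is the Ppy minimum of 3000; PP cells (red) fill the upper right corner by the rule in Ppy, with Pyy from 2909 upward, and delta cells (purple) come nearest to them in Pyy.

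To compare classes over libraries, UMIs were summed per library and class where a class had at least 5 cells. This gave 11 PP sums (144 cells, 209963 to 907076 UMIs each), 11 alpha, 10 beta and 9 delta sums. Values are UMI counts scaled to the library's total (CPM) on the scale of this fit, and log2 fold changes come with their standard errors from edgeR's quasi-likelihood test with the library as a block and Benjamini-Hochberg adjustment over 11322 genes.

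All 4 other markers given for PP cells, Pyy, Folr1, Tspan8 and Cd9, were higher in PP cells than in each other class. They were proposed with results of these data known, so their direction is no independent evidence. In the summed libraries Pyy had a lowest of 60290, a median of 88220 and a highest of 114071 CPM in PP cells, against medians of 15739 in alpha, 1541 in beta and 35570 in delta cells. Its log2 fold changes were 2.53 ± 0.25, 5.27 ± 0.30 and 1.28 ± 0.26, and the lowest PP library stood above the highest delta library at 45468.

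Folr1, a folate receptor anchored in the plasma membrane, had 269.6, 551 and 721 CPM as lowest, median and highest in PP cells. Medians were 28 in alpha, 123 in beta and 219.7 in delta cells. The log2 fold changes were 4.09 ± 0.24, 2.34 ± 0.23 and 1.17 ± 0.23. PP and delta libraries overlapped in range, but within libraries PP was higher in 9 of 9.

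Tspan8, a tetraspanin also found in ductal epithelium, had 697, 862 and 1218 CPM in PP cells, 43.5 in the median alpha, 192 in the median beta and 474 in the median delta library. Its change was 4.39 ± 0.28 against alpha, 2.59 ± 0.27 against beta and 1.12 ± 0.27 against delta cells. No PP library overlapped any library of another class, but the call against delta cells was lost with a hormone ratio of at least 10 (log2 change 0.67, adjusted p = 0.14).

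Cd9, another tetraspanin, had 205, 359.5 and 855 CPM in PP cells. It separated PP from delta cells more widely than the other 3 did in these fits, with a median of 17.3 CPM there and a change of 3.46 ± 0.35. The changes were 2.72 ± 0.28 against alpha and 5.02 ± 0.33 against beta cells. Adjusted p-values of the joint test, described below, were 0.0046 for Pyy, 0.0046 for Folr1, 0.029 for Tspan8 and 4.1e-10 for Cd9.

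**Figure D2:**
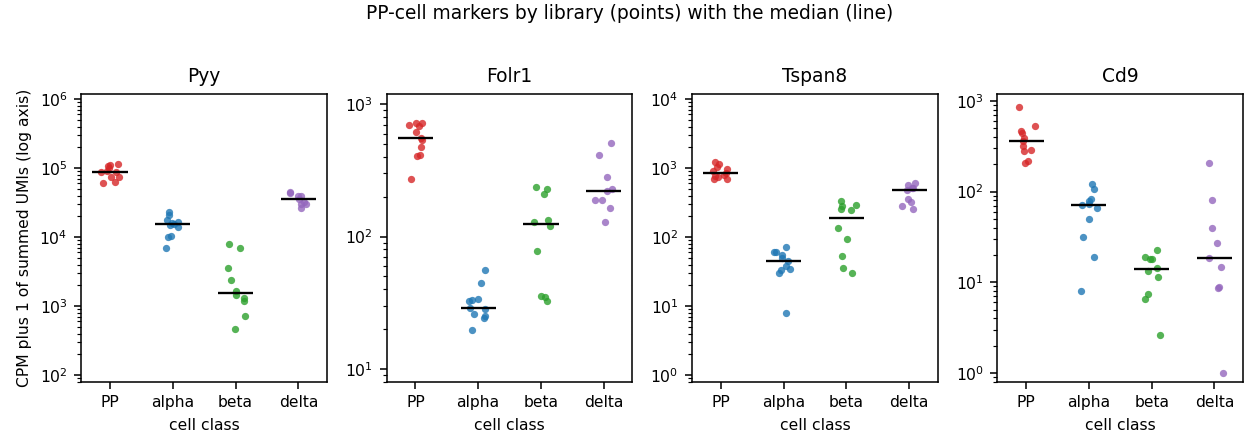
Pyy, Folr1, Tspan8 and Cd9 in CPM plus 1 of summed UMIs (log axes), with 1 point per library and a line at the median of each class. PP libraries lie above those of the other classes in every panel except for Folr1, where the highest delta libraries reach into the PP range.

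The markers also met in single cells. After every cell was thinned to 24580 UMIs, which left out 23 PP, 63 alpha, 46 beta and 37 delta cells below that depth, 118 of 131 PP cells (90.1%) held at least 1 UMI of all 4. The count was 14 of 91 delta cells (15.4%), 17 of 429 alpha cells (3.96%) and 26 of 864 beta cells (3.01%). Libraries ranged from 3 of 6 PP cells in control replicate 2 (50%) and 4 of 7 at STZ_D6 (57.1%) to all PP cells in 7 of 14 libraries. At this depth Cd9 was detected in 96.2% of PP cells and 24.2% of delta cells, and Folr1 in 93.1% and 79.1%.

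Few genes set PP cells apart from all 3 other classes at once. A gene was called here when the largest of its 3 one-sided p-values, adjusted over all genes, was under 0.05. This held for 19 genes above (0.168% of 11322) and 12 below (0.106%). Beside Ppy, which the rule used, and 1 predicted gene, the 19 comprised the 4 markers and 13 more.

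Among these 13, Ugt2b34, of a family of glucuronosyltransferases whose members may share reads, had a median of 228 CPM in PP cells against 86.6, 56.7 and 3.08 in alpha, beta and delta cells (joint adjusted p = 5.6e-06). Spon2, a secreted matrix protein, had 112 against 51.8, 26.5 and 7.61 CPM, in the same order (0.02). Kdelr3, a receptor that returns proteins to the endoplasmic reticulum, had 70.5 against 10.1, 22 and 13.9 (0.013). For Hspb8, a small heat shock protein, the medians were 75.1 against 28.1, 29.1 and 10.8 (0.0071). These genes were expressed in all classes, and the PP sum was higher in every library pair against beta cells.

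Smaller changes were seen for Sdc4, a heparan sulphate proteoglycan, at 0.96 ± 0.19, 0.93 ± 0.20 and 1.42 ± 0.22 on the log2 scale, and for Adk, adenosine kinase, at 0.72 ± 0.15, 1.04 ± 0.15 and 1.58 ± 0.18. Malat1, an abundant nuclear RNA, was the smallest, at 0.68 ± 0.09, 0.91 ± 0.09 and 0.42 ± 0.09. Joint adjusted p-values were 0.0071, 0.0046 and 0.013.

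A further 5 were scarce genes. Nkx6-3, a homeobox transcription factor known from the stomach, had 4.47, 27.1 and 51.9 CPM in PP cells. It gave 163 UMIs in the PP sums against 44 in alpha, 3 in beta and 2 in delta sums, which were 3.04, 6.5 and 0.542 times as deep. Thinned cells held it in 23.7% of PP, 3.03% of alpha, 0.347% of beta and 1.1% of delta cells. The exact 95% interval for PP cells, 16.7% to 31.9%, pools cells of all libraries and leaves out the spread between libraries. The joint adjusted p was 0.0012, and the PP sum was the higher in 10 of 11 libraries against alpha, 10 of 10 against beta and 9 of 9 against delta cells. This call was lost in sums of thinned cells (log2 change 3.95, joint adjusted p = 0.12) and with at least 10 cells per sum (0.093). It was also lost with a hormone ratio of at least 10 and with only mice without STZ.

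St8sia6, a sialyltransferase, gave 80 UMIs in PP sums, 3 in alpha and 0 in beta and delta sums, and was present in each of the 11 PP libraries (4.31 to 49.1 CPM). Against a floor of 3 counts over the group it was at least 173-fold higher than in beta and at least 14.5-fold higher than in delta cells. Lrrtm1, a synaptic adhesion protein, had medians of 31.6 CPM in PP and 2.91 in alpha cells and was found in 30.5% of thinned PP cells against 3.03%, 0.579% and 6.59%. Ptchd1, a membrane protein with a patched domain, was found in 11.5%, and Lin7a, a scaffold protein, in 16.8%. Joint adjusted p-values were 0.0046, 0.0011, 0.029 and 0.028. Low shares of cells at this depth do not tell scarce expression in all PP cells from expression in some.

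The 12 genes below all 3 classes were 1 predicted gene and 11 named ones. Syndig1l, a membrane protein related to a synapse inducer, gave 5 UMIs in PP sums, with 8 of 11 libraries at 0, against medians of 11.9, 29.5 and 35.8 CPM in alpha, beta and delta cells (joint adjusted p = 0.00017). Car8, a carbonic anhydrase homologue, had a median of 6.12 CPM against 44.7, 36.2 and 216 (0.0018). Rnase4, a secreted ribonuclease, had 111 against 426, 373 and 169.6 CPM (0.00055), and Ids, a lysosomal sulphatase, 46.7 against 149, 114 and 150.0 (0.00018). For Rnase4 and Ids the PP sum was lower in all library pairs.

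Rfx6, a transcription factor needed for islet development, was lower by -1.11 ± 0.24, -1.18 ± 0.25 and -1.90 ± 0.26 on the log2 scale (joint adjusted p = 0.019). Its PP libraries ran from 4.31 through 27.6 to 99.6 CPM, a wider spread than the 51 to 115 of alpha libraries. Dach1, a developmental repressor, changed by -1.76, -1.82 and -2.47, and Vegfa, the vascular growth factor, by -0.90, -0.89 and -0.97. The remaining 4 were Kcnb2, a potassium channel with 3 UMIs in PP sums, Cdk14, a kinase, Lrrn1, a leucine-rich repeat membrane protein, and Tmem65, a membrane protein.

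Leaving aside predicted genes and Ppy, all 17 higher and 11 lower genes kept their sign in every alternative fit. The calls, however, depended on the libraries, on purity and on the tool. With DESeq2 in place of edgeR the joint calls of Pyy, Folr1 and Tspan8 were lost (adjusted p = 0.13, 0.066 and 0.42). Those of St8sia6, Ptchd1 and Malat1 were also lost (0.57, 0.095 and 0.1), but no other named gene lost its joint call there. With only STZ libraries from mice with implants 11 genes were called above and 7 below. With only mice without STZ, in 3 PP libraries, 2 were called above, Cd9 and Ppy, and 1 below, the predicted gene. With a hormone ratio of at least 10, 4 were called above, among them Cd9, Ugt2b34 and Ppy.

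Leaving out 1 library at a time gave 15 to 18 genes above and 5 to 13 below, with 6 below without control replicate 1, 5 without STZ_D42, and 7 each without STZ_D30, STZ_M2 or STZ_M5. In all 11 of these fits 11 of the 17 higher and 4 of the 11 lower genes kept their call, among them Pyy, Folr1, Cd9, Nkx6-3, Lrrtm1 and Syndig1l. Tspan8 was lost in 7 of the 11 (adjusted p of 0.05 to 0.1), Ptchd1 in 9, Lin7a in 6, Malat1 in 4, Spon2 in 3 and Kdelr3 in 2. Among the lower genes Kcnb2 and Vegfa were each lost in 10, Tmem65 in 9, Rfx6 and Dach1 in 7, Cdk14 in 5 and Lrrn1 in 4. Cd9 alone was called in every alternative run.

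**Figure D3:**
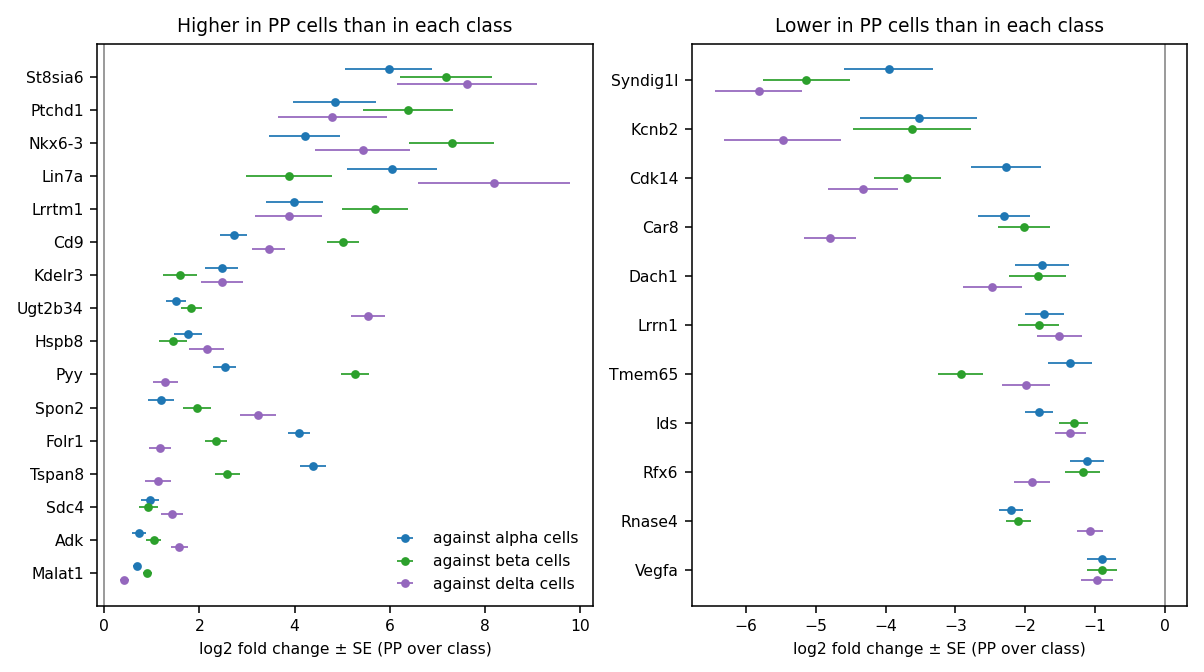
Log2 fold changes with their standard errors of the genes described in the text and called higher (left) or lower (right) in PP cells than in each of alpha (blue), beta (green) and delta (purple) cells. Every point lies on the called side of 0; values of genes with 0 UMIs in a class, such as St8sia6, depend on the prior count of the fit.

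Transcription factor genes of PP cells differed from each class in both directions. Of 29 tested islet factor genes, 4 were higher and 8 lower than in alpha cells, 10 higher and 7 lower than in beta cells, and 7 higher and 8 lower than in delta cells. Over all genes the shares called were 3.96% higher and 6.2% lower against alpha (10.2% in either direction), 5.07% and 9.23% against beta, and 6.39% and 5.97% against delta cells. The list's median log2 fold changes were -0.17, 0.31 and 0.07, beside -0.11, -0.10 and 0.03 over all genes. The shares over all genes apply to every list below, whose counts were not tested against them. With DESeq2 in place of edgeR, the genes called against delta cells went from 724 higher and 676 lower to 648 and 952.

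The iroquois factors Irx1 and Irx2, genes of alpha cells, were lower than in alpha cells and changed by -5.33 ± 0.66 and -3.36 ± 0.38. Irx1 had 9 of 11 PP libraries at 0, whereas Irx2 was above beta (2.37 ± 0.46) and delta cells (3.17 ± 0.70). Both of these calls were lost with a hormone ratio of at least 10 (adjusted p = 0.097 and 0.26).

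Etv1, an ETS factor, did not pass the test against alpha cells, with a change of -0.17 ± 0.19 (adjusted p = 0.66). Its median was 525 CPM in PP and 674 in alpha cells. Etv1 rose by 3.75 ± 0.22 over beta and 1.27 ± 0.21 over delta cells. Fev, a factor of serotonergic neurons and endocrine precursors, rose by 4.51 ± 0.36 over beta cells.

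Factors of beta and delta cells were intermediate or low. Pdx1, required for pancreas formation and beta-cell function, had 22 CPM in the median PP library, above alpha cells by 1.48 ± 0.33 and below beta cells by -2.81 ± 0.31. Nkx6-1, a beta-cell factor, had 30.7 CPM and changed by 1.61 ± 0.37, -2.33 ± 0.35 and 1.72 ± 0.48 against alpha, beta and delta cells. With Prss2 under 500, Pdx1 lost its call against alpha and Nkx6-1 that against delta cells (adjusted p = 0.13 and 0.17). With only mice without STZ, Pdx1 changed by 0.511 against alpha cells and lost its call (adjusted p = 0.81). Nkx6-1 there changed by 0.855 against alpha and 0.665 against delta cells and lost both calls (adjusted p = 0.61 and 0.73).

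Mlxipl, the glucose-responsive factor ChREBP, changed by 2.22 ± 0.32 against alpha cells, and Hhex, the delta-cell factor, by -5.14 ± 0.45 against delta cells. Insm1, a zinc finger factor of secretory cells, was lower than in delta cells by -2.47 ± 0.32, and Nkx2-2 higher by 1.05 ± 0.23. The call of Nkx2-2 was lost with only mice without STZ (log2 change 0.416, adjusted p = 0.72). Isl1 and Pax6, which all islet cells use, had medians of 292 and 464 CPM in PP cells. Mafa, a marker of mature beta cells, was at 0 in all PP sums.

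**Figure D4:**
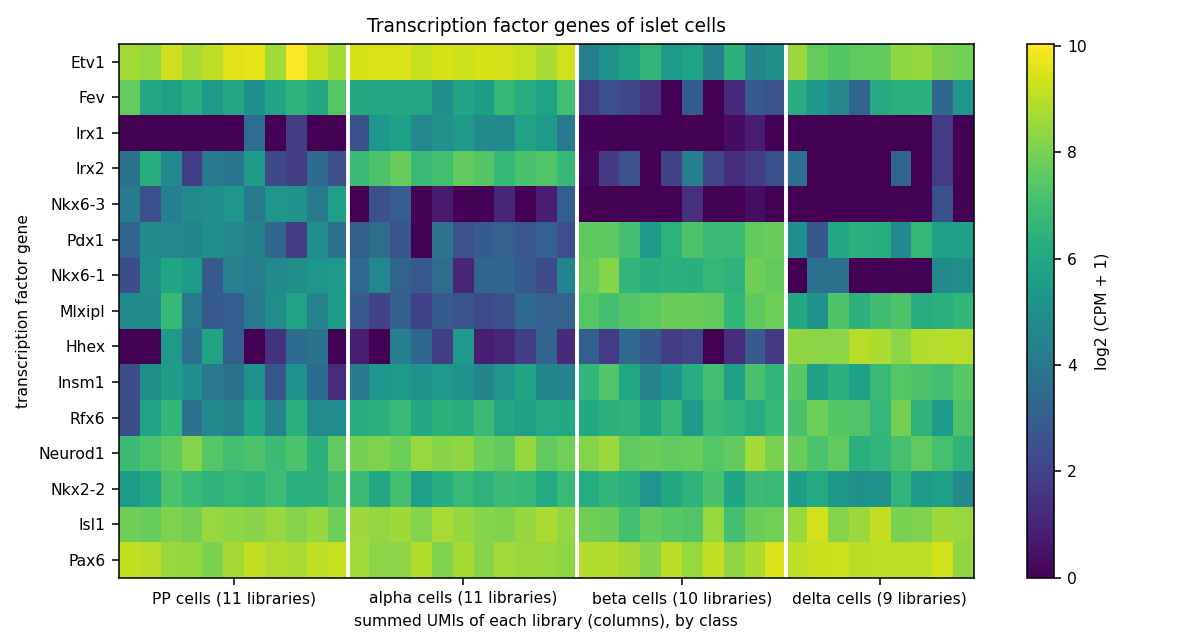
Log2 (CPM + 1) of 15 transcription factor genes (rows) in the summed UMIs of each library (columns), grouped into PP, alpha, beta and delta cells. Etv1 is high in PP and alpha libraries, Irx2 is high in alpha libraries alone, and Nkx6-3 is above 0 in all 11 PP libraries.

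Lists of cell identity genes placed PP cells in the same way. Of 15 tested alpha-cell genes 8 were lower and 1 higher than in alpha cells (median -0.85), while 7 were higher and 2 lower than in beta cells (median 1.82). Ttr, transthyretin, fell by 2.79 on the log2 scale against alpha cells (SE 0.18) and was higher than in delta cells by 3.59 ± 0.21. The amino acid transporter genes Slc7a2 and Slc38a5 changed by -2.52 ± 0.21 and -4.26 ± 0.39. All 16 tested beta-cell genes were lower than in beta cells (median -4.82), including the glucose transporter Slc2a2 at -4.77 ± 0.42, Ucn3, a urocortin of mature beta cells, at -5.32 ± 0.37, and G6pc2, a glucose-6-phosphatase, at -6.36 ± 0.31. Ins1 and Iapp, in the same list, are tied to the Ins2 limit of the rule.

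Of 11 tested delta-cell genes 8 were lower than in delta cells and 0 higher (median -4.83). Among them Ptprz1, a receptor phosphatase, fell by 8.47 on the log2 scale, and Cd24a, a surface glycoprotein, by 5.94. Ghsr, the ghrelin receptor, had 2 UMIs in PP sums and 63 in the shallower delta sums. Iapp, islet amyloid polypeptide, had a median of 3913 CPM in PP and 24739 in delta cells (-2.64 ± 0.31). A list of 16 genes tied to PP cells in islet atlases split, with 4 of 12 tested higher and 2 lower than in alpha cells, 4 higher and 3 lower than in beta cells, and 2 higher and 3 lower than in delta cells. One of them, Vsig1, a junction adhesion protein, had the largest increase over alpha cells (6.73 ± 1.11) among called genes other than rule and predicted genes. It gave 82 UMIs in PP, 1 in alpha and 0 in delta sums. Gfra3, a receptor for the neurotrophic factor artemin, had the largest decrease among the same genes: 0 UMIs in PP sums and 828 in alpha sums, at least 90.7-fold lower.

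Granule and hormone processing genes differed from each class in both directions. Of 27 granule and hormone processing genes, 6 were higher and 7 lower than in alpha cells, 6 higher and 13 lower than in beta cells, and 10 higher and 3 lower than in delta cells. Pcsk1, the prohormone convertase that beta cells use for proinsulin, had 1.48, 24.5 and 65.8 CPM in PP cells, above alpha cells by 3.63 ± 0.39 and below beta cells by -3.82 ± 0.28. Pcsk2, the convertase typical of alpha cells, was lower than in alpha cells by -0.60 ± 0.09. Chgb, chromogranin B, and Scg2, secretogranin 2, were higher than in alpha cells by 1.17 ± 0.15 and 1.15 ± 0.11, and Chga, chromogranin A, was lower than in beta cells by -1.75 ± 0.12.

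Slc30a8, the granule zinc transporter, had a median of 59.4 CPM in PP cells, against 741 in alpha and 326 in beta cells. It changed by -3.75 ± 0.32 against alpha cells, and the ranges did not overlap. Vgf, a secreted neuropeptide precursor, gave 9 UMIs in PP sums, with 7 of 11 libraries at 0, and changed by -4.47 ± 0.62. Against delta cells the exocytosis genes Cadps and Snap25 were higher by 4.24 ± 0.47 and 1.15 ± 0.18.

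Of 22 tested receptor genes, 2 were higher and 5 lower than in alpha cells, 3 higher and 5 lower than in beta cells, and 8 higher and 2 lower than in delta cells. Higher and lower shares of all genes were 3.96% and 6.2% against alpha, 5.07% and 9.23% against beta, and 6.39% and 5.97% against delta cells. Chrm3, the muscarinic acetylcholine receptor, had 13.4, 28.8 and 64 CPM in PP cells and 2.34 in the median alpha library, and rose by 3.55 ± 0.48. It was also above delta cells, by 2.59 ± 0.58. Galr1, a galanin receptor, was higher than in alpha (2.86 ± 0.63) and delta cells (5.28 ± 1.11). Both calls against delta cells were lost with a hormone ratio of at least 10 (adjusted p = 0.087 for Chrm3 and 0.069 for Galr1) and with only mice without STZ (0.054 and 0.51), as was that of Galr1 against alpha cells without STZ (0.60). Gpr119, a lipid receptor of enteroendocrine cells, was higher than in delta cells by 6.99 ± 0.70, and Ffar4, a receptor of long fatty acids, was higher than in beta cells by 1.68 ± 0.31.

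Sstr2, a somatostatin receptor, and Avpr1b, a vasopressin receptor, were lower than in alpha cells by -3.58 ± 0.66 and -2.64 ± 0.60. The call of Avpr1b was lost with a hormone ratio of at least 10, where its change was -1.04 (adjusted p = 0.53), and with at least 10 cells per sum, Prss2 under 500, only STZ libraries or only mice without STZ (adjusted p of 0.056 to 0.098). Gcgr, the glucagon receptor, gave 5 UMIs in PP sums and changed by -5.54 ± 0.78 against beta cells. Glp1r, the GLP-1 receptor of beta cells, was at 0 in all PP sums. Gipr, the GIP receptor, was higher than in delta cells by 2.44 ± 0.76 (adjusted p = 0.024), and this call was lost without STZ_D42, P21 or STZ_D12 replicate 2, and with Prss2 under 500 (adjusted p = 0.27).

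Of 18 tested surface proteins 10 were higher and 1, Cd36, lower than in alpha cells (median 0.63), 5 were higher and 3 lower than in beta cells, and 6 higher and 3 lower than in delta cells. The list holds the markers Folr1, Tspan8 and Cd9, which were chosen with these data known. Without them 7 of 15 were higher and 1 lower than in alpha cells, beside 3.96% and 6.2% of all genes, 2 higher and 3 lower than in beta cells, and 3 higher and 3 lower than in delta cells. Among these, Cd151 and Tspan13, both tetraspanins, were higher than in alpha cells by 1.24 ± 0.36 and 1.09 ± 0.14. The call for Cd151 was lost without STZ_D30 (adjusted p = 0.055) and with Prss2 under 500 (0.12).

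Of 14 tested ductal genes, Tspan8 among them, 7 were higher than in alpha cells, 4 higher than in beta cells, and 3 higher and 5 lower than in delta cells. Without Tspan8, a marker chosen with these data known, 6 of 13 were higher than in alpha and 3 higher than in beta cells. Against delta cells 2 of these 13 were higher and 5 lower. Spp1, osteopontin, had a median of 630.5 CPM in PP cells and was higher by 2.08 ± 0.42 than in alpha cells, and Clu, clusterin, was higher by 1.72 ± 0.23. Of 24 acinar genes 0, 1 and 1 passed the test against alpha, beta and delta cells, and Prss2 is limited by the rule in all 4 classes. The part of ductal RNA in these values was not tested.

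Transcripts of the folding machinery were mostly lower in PP cells than in beta cells. Of 24 unfolded protein response genes 18 were lower than in beta cells and 0 higher (median -1.21), against 5 higher and 0 lower versus alpha and 6 higher and 0 lower versus delta cells. Of all genes 9.23% were lower than in beta cells, 3.96% higher than in alpha and 6.39% higher than in delta cells. Hspa5, the chaperone BiP, had a median of 943 CPM in PP and 1856 in beta cells (-1.10 ± 0.12), and Edem1 and Sdf2l1, also of the endoplasmic reticulum, changed by -2.32 ± 0.36 and -2.27 ± 0.20.

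Immediate early genes, which also respond to cell isolation, were higher than in beta cells in 12 of 19 cases and lower in 0 (median 1.28), while 1 was higher and 1 lower than in alpha cells. Against delta cells 4 were higher and 1 lower. Of all genes 5.07% were higher than in beta, 3.96% higher than in alpha and 6.39% higher than in delta cells. Fos changed by 1.52 ± 0.25 and Jun by 1.97 ± 0.24 against beta cells. Fos ranged widely among PP libraries, from 1.53 in STZ_D12 replicate 2 to 2190 CPM. Its call against beta cells was lost without the library block (adjusted p = 0.085). That call was also lost with only mice without STZ (log2 change 0.731, adjusted p = 0.17). The metallothionein genes Mt1 and Mt2 were higher than in delta cells by 1.56 ± 0.23 and 2.74 ± 0.32.

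PP cells came mostly from STZ-treated mice. Of the 154, 121 were from STZ mice with implants, 13 from STZ mice without, 11 from controls and 9 from young mice, and 3 of 17 libraries held none. Over the 4 classes the PP share was 2.07%, 3.49% and 0% in the control libraries, where 0 of 22 cells allows up to 13.6% by a limit of 3 counts and 15.4% by the exact interval. It was 10.8% at STZ_D6, 36.5% and 20.7% at STZ_D12, 16.7% at STZ_D30, 20.2% at STZ_D42, 20% at STZ_M2, 15.5% at STZ_M5 and 3.7% at STZ_M9. All 8 STZ libraries were above all controls. The means were 18% ± 9.43 (SD, n = 8) and 1.85% ± 1.75 (SD, n = 3), a difference of 16.2 points (exact two-sided permutation test, p = 0.0242). Adjusted over the 3 tests of shares, p was 0.0727 and the difference did not pass.

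Beta cells are part of this denominator, at 359 of 436 cells in the controls and 192 of 710 in STZ libraries. Among PP, alpha and delta cells alone the PP share was 15.2% and 14% in 2 control libraries. In STZ libraries it was 14.7% at STZ_D6, 42.2% and 29.3% at STZ_D12, 21.9% at STZ_D30, 24.1% at STZ_D42, 22.2% at STZ_M2, 34.8% at STZ_M5 and 5.26% at STZ_M9. STZ libraries thus lay on both sides of the controls, and the difference of 9.75 points did not pass the test (24.3% ± 11.5, n = 8, against 14.6% ± 0.847, n = 2; exact two-sided permutation test, p = 0.289, adjusted p = 0.433). The 2 libraries without implants had 17.6% and 16.7%, and P3 and P21 had 16.7% and 8.97%. Postnatal libraries differed from controls by -1.73 points (exact two-sided permutation test, p = 1), where 2 against 2 libraries cannot give a p below 0.333.

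These shares describe the cells collected by sorting and hand transfer, and not islets. The unadjusted exact permutation p of the first difference rose above the threshold without any one of the 3 controls (p = 0.0889 each) and reached it without STZ_M2 or STZ_D12 replicate 2 (p = 0.05 each). With labels permuted within the batch numbers as a replicate block the exact p was 0.0625, the smallest that this design can give, so it could not pass.

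**Figure D5:**
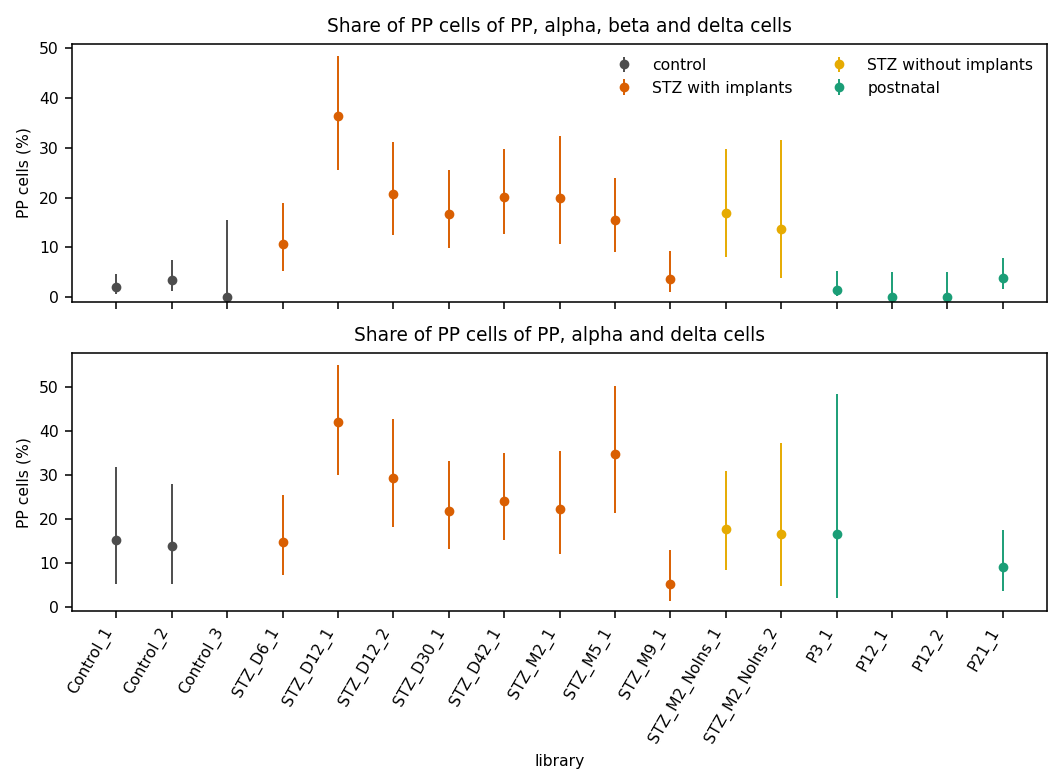
PP cells as a percentage of PP, alpha, beta and delta cells (upper) and of PP, alpha and delta cells (lower) in each library, with exact 95% binomial intervals and colour by arm. In the upper panel all STZ libraries with implants lie above the 3 controls, whereas in the lower panel the controls, at 15.2% and 14%, lie among them; libraries with fewer than 10 such cells are left out below.

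Within PP cells, no gene passed the test between STZ mice with implants and controls. The comparison used 7 STZ and 2 control sums of at least 5 PP cells, in a fit that also held P21 and STZ_M2_NoIns replicate 1, and CPM below are on the scale of that fit. Of 10154 genes 0 were called (0%), and 940 had an unadjusted p under 0.05. On simulated counts the fit recovered 8.96% of 2-fold and 62.7% of 4-fold changes, so small changes could be missed. All lists had 0 called members, and the 4 markers had a median log2 change of 0.18 beside 0.21 over all genes.

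Pyy, Folr1 and Tspan8 differed between the arms by less than their standard errors. Pyy had 110436 and 73977 CPM in the controls and 59540, 87285 and 109105 (lowest, median, highest) in the STZ libraries, a log2 change of -0.05 ± 0.25. The 2 arms overlapped. Folr1 and Tspan8 changed by 0.27 ± 0.31 and 0.09 ± 0.26. Cd9 had 275 and 206 CPM in the controls and 314, 423 and 818 in the STZ libraries, which did not overlap, but the change of 0.94 ± 0.34 had an adjusted p of 0.39. Of all tested genes 7.5% had every STZ library at once above both controls, and 3.1% had every STZ library below both.

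The 5 genes with the smallest p-values are given as not called. Lcmt1, a methyltransferase acting on protein phosphatase 2A, had 0 UMIs in both controls and 38.4 to 88.4 CPM in STZ libraries, a median at least 7.52-fold above a floor of 3 counts over the controls (adjusted p = 0.057). Med29, a Mediator subunit, also had 0 in both controls and 30.9 to 84.7 CPM (0.083). Ndufs8, a subunit of respiratory complex I, had 0 and 22.4 against 75.6 to 135 (0.074), and Nsd1, a histone methyltransferase, 34.4 and 31.3 against 100.4 to 214 (0.083). Nlgn1, a neuronal adhesion protein, had 25.8 and 116 against 0 to 10.3 (0.083). The 2 control sums hold 5 and 6 cells, and leaving out control replicate 2, control replicate 1 or STZ_D6 gave 31, 1 or 2 calls in place of 0. With the batch number as a replicate block 8 genes were called, Lcmt1, Ndufs8, Nsd1 and the genes Clps, Ctrb1, Pnliprp1, Spink3 and Pla2g1b, of which the first 4 are in the acinar list.

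Markers of other cells moved among these libraries. The summed CPM of 25 acinar genes was 8799 and 39031 in the controls and ran from 27302 to 54117 in STZ libraries, with 7415 in P21 and 7534 in STZ_M2_NoIns. That of 18 beta-cell genes was 14686 and 19542 in the controls and 703 to 17167, with a median of 3844, in STZ libraries. Ins1 had 10990 and 4783 CPM against a range of 79.7 to 8313 (-1.67 ± 0.72, adjusted p = 0.47). The part of these in the comparison was not tested.

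The STZ effect was also compared between PP and alpha cells of the same libraries. Of 10111 genes 0 were called (0%), with 750 at an unadjusted p under 0.05. This fit recovered 1.49% of 2-fold and 53.7% of 4-fold differences on simulated counts, again set as increases in the better-covered genes only. Srsf7, a splicing factor, had the smallest p, with the difference PP minus alpha at 2.36 ± 0.48 on the log2 scale (adjusted p = 0.074), followed by Med29, Akap5, an anchor of protein kinase A, and Nsd1 (all 0.074). Without control replicate 1, 10 genes were called, among them Srsf7 and Akap5, without control replicate 2 8 genes, and without STZ_M2 1, Akap5.

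Young mice gave 1 PP sum, the 7 cells of P21, which was assumed to vary like the other arms. The spread among young libraries was not measured, so the values below are differences of this 1 library from the controls. Against the controls 12 of 10154 genes were called (0.118%), 5 higher (0.0492%) and 7 lower (0.0689%). Akap5 had 210.4 and 44.7 CPM in the controls and 1629 in P21 (3.67 ± 0.71, adjusted p = 0.027), and Ndufaf3, an assembly factor of complex I, 21.5 and 4.47 against 173 (0.031). Lcmt1, at 0 in the controls, had 71.1 CPM (0.027), and Isca2, of iron-sulphur cluster assembly, changed by 3.60 ± 0.77 (0.045). Tmem126a, Adipor2 and Gna11 were at 0 in P21 and had 55.8 and 183, 85.9 and 93.9, and 55.8 and 84.9 CPM in the controls.

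The acinar genes Pnlip and Ctrl, a lipase and a protease, were lower in P21 by -3.72 ± 0.64 and -3.05 ± 0.59, as was the acinar sum given above for this library against control replicate 2. No other fixed list had a called member here. Every gene named above as called in P21 kept its sign but lost its call without control replicate 2, which left only control replicate 1. The count of calls was 4 when a replicate block for the labels' batch numbers was added. With Prss2 under 500 it was 0, all 12 calls lost.

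Ghrl, the ghrelin gene, which marks the epsilon cells of the young islet, was found in PP cells of young mice, and in P21 also in the other classes. In P3 both PP cells held it, at 18.3 and 985 UMIs per 100000, and in P21 6 of 7 did, with a median of 42.8 and a highest of 72.1. None of the 11 control PP cells held a Ghrl UMI, and 2 of 134 PP cells from STZ mice did, at 1.94 (STZ_D6) and 29.3 (STZ_D30). The summed level was 211 CPM in P21, at least 32.1-fold above the floor of 3 counts over the controls, with an adjusted p of 0.052. On the scale of the class fit, P21 held 213 CPM of Ghrl in PP, 840 in beta, 82 in alpha and 21.5 in delta cells, against at most 10.7 CPM in any class of the controls.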

How the data were processed

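The assay was a modified form of STRT-seq for single cells, with unique molecular identifiers. The authors deposited UMI counts of 40824 genes in 2999 cells, none of which was filtered out here. Their deposited signal table scales UMIs to 100000 of a cell's total. That total leaves out Yam1 and the hormone genes Ppy, Pyy, Sst, Gcg, Iapp, Ins2 and Ins1, 8 in all, and the formula held to within 0.01. A metadata table of other content, also deposited, names each cell's raw file. The submitters' processing notes name UMI-tools 0.5.0, SAMtools 1.3.1, featureCounts 1.5.3 and TopHat2 2.1.0, with mm10. Strand use in counting and filters on cells are not given in the sources used here. Genes of close families (Ins1 and Ins2, trypsin and Ugt2b genes) may share reads. Library totals ran from 1420536 to 26298456 UMIs.

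PP cells and gene lists were chosen with earlier results of these data known. No doublet caller was run, since cells were transferred singly per the labels' protocols, and 0 pairs of cells had identical counts. UMIs of at least 5 cells per library and class were summed and tested with edgeR 4.0.16 in R 4.3.3 (TMM, filterByExpr, quasi-likelihood F test). The library was a block between classes, and each arm had 1 mean. The threshold was an adjusted p (Benjamini-Hochberg) of 0.05, and an SE is the size of the log2 change divided by the root of F. Ppy, Ins2, Gcg, Sst and Prss2, used by the rule, were given no test. The text names the markers, up to 25 genes called above or below all 3 classes by their smallest change, up to 10 called genes per direction with the largest change in each other contrast (or, with fewer than 5 called, the 5 with the smallest p) and some members of each list. Predicted genes are counted and not named, and some other genes are counted but not reported here. Shares were compared by exact permutation over libraries with at least 10 cells in the denominator, with exact Clopper-Pearson intervals at 95%. Intervals and the floor of 3 counts cover counting error only. Cells were thinned to 24580 UMIs, the 10th percentile of the 4 classes (Python 3.11.15, NumPy 2.4.6, SciPy 1.17.1). Scripts were tested on simulated counts. Alternatives were DESeq2 1.42.0, no low-count filter, other library sizes, stricter rules for cells, thinned cells, models with and without blocks, each library left out and, chosen after seeing the data, only STZ libraries with implants or only mice without STZ. The labels' batch numbers equal the replicate numbers in each group, and nothing states what they share across groups. Raw file names hold a run name for 10 libraries. All 6 PP cells of control replicate 2 share theirs with the 12 of STZ_M2, 5 of STZ_D6 and 3 of STZ_D30, too few to test within runs. Positions and promoters are from RefSeq on GRCm38.p6, where 29 of 29 genes matched a position and 21 a promoter.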

Additional observations from a re-analysis of the deposited data

Results flagged for a closer look

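In 59 sets of values from 7 or 8 STZ libraries with implants, 10 values stood apart from the rest of their group by their gap over the range (Dixon's 95% critical value), where chance gives about 1 in 20 groups. PP cells of STZ_M9 had a median of 60124 UMIs, against 40882 in the nearest library, and a median of 696 Gcg UMIs per 100000, against 394. Those of STZ_M5 had medians of 3069 Ins2 and 1081 Ins1 UMIs per 100000, against 1228 and 439. Cd9 stood at 818 CPM in STZ_D12 replicate 1, with the nearest library at 503. In the same library the summed CPM of the immune markers was 2326, with the nearest at 368. Car8 and Tmem65 were high at STZ_D6, with 28.8 and 69.6 CPM against 13.3 and 24.5. Med29 stood at 84.7 CPM in STZ_D42, against 49.4. Ghrl stood at 8.73 CPM in STZ_D30, against 2.4. Outside the summed libraries, the 2 PP cells of P3 had a median of 501.9 Ghrl UMIs per 100000, against a median of 0 in both control libraries with PP cells.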

How the results depend on the processing

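Counts of called genes moved by more than 1.5 times as follows (the cause was not tested). Against alpha cells 1150 genes became 559 with a hormone ratio of at least 10, 738 with Prss2 under 500, 737 with only STZ libraries with implants and 128 with only mice without STZ, both of the last chosen after seeing the data. Against beta cells 1619 became 890 with that ratio and 448 without STZ. Against delta cells 1400 became 740 with at least 10 cells per sum, 454 with the ratio, 867 with Prss2 under 500, 910 in thinned cells and 174 without STZ. The 19 genes above all 3 classes became 9, 4 and 9 under the first 3 of these settings, 11 with no replicate block, 11 with only STZ libraries and 2 without. The 12 below became 32 by DESeq2, 25 with no low-count filter, 6 with at least 10 cells, 4 with Prss2 under 500, 7 with only STZ libraries and 1 without. Between STZ and control 0 became 45 with no filter and 8 with the batch number as a replicate block. The 12 postnatal calls became 6 by DESeq2, 95 with no filter, 0 with Prss2 under 500, 2 in thinned cells and 4 with the replicate block. For the difference between PP and alpha cells 0 became 14 with no filter and 6 with Prss2 under 500.

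Leaving out 1 library at a time gave 952 to 1066 calls against alpha, 1389 to 1527 against beta, 1156 to 1353 against delta cells, 15 to 18 above, 5 to 13 below, 0 to 31 for STZ, 3 to 47 postnatally and 0 to 10 for the difference. The PP share of 4 classes exceeded controls by 13.5 to 18.2 points in these fits, by 18.7 with the ratio (exact permutation p = 0.0667) and by 16.2 with the replicate block (exact p = 0.0625, the smallest that design can give). The postnatal difference of the PP share among PP, alpha and delta cells was -5.58 points without P3 and turned to 2.11 without P21. Between STZ and control, changes smaller than their errors also turned: Folr1 to -0.11 and Tspan8 to -0.033 with Prss2 under 500, and Tspan8 to -0.037 by DESeq2. With 1 library left out, Pyy ran from -0.31 without control replicate 2 to 0.28 without control replicate 1. The ratio and the minimum of 10 cells left no control sum, so STZ and postnatal effects could not be fitted there. The control sums held 5 and 6 PP cells.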

Other observations

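Edn3, which encodes endothelin 3, differed between PP cells and the other classes in both directions, though not in every setting. It was lower than in alpha cells (-1.70 ± 0.37) and higher than in beta (5.12 ± 0.52) and delta cells (2.21 ± 0.53). In the list of 13 tested peptide hormone genes that holds it, 1 was higher and 3 lower than in alpha cells, 1 higher and 7 lower than in beta cells, and 1 higher and 2 lower than in delta cells. Of 17 p53 and DNA damage genes 1 was higher and 2 lower than in alpha, 3 higher and 4 lower than in beta, and 2 higher and 0 lower than in delta cells. Higher and lower shares of all genes, in the same order, were 3.96% and 6.2%, 5.07% and 9.23%, and 6.39% and 5.97%. The counts of the lists in this section were not tested against these shares. Among the p53 and DNA damage genes Cdkn1a, the cell cycle inhibitor p21, changed by -2.04 ± 0.36 against alpha and -3.02 ± 0.37 against beta cells. Plk2, a polo-like kinase, changed by 1.28 ± 0.43, 3.65 ± 0.50 and 3.73 ± 0.61 against alpha, beta and delta cells. The first of these calls was lost in 8 of 11 fits with 1 library left out and with Prss2 under 500 (adjusted p = 0.34). The call of Edn3 against delta cells was lost with a hormone ratio of at least 10 (log2 change 0.08, adjusted p = 0.97). It was also lost with at least 10 cells per sum (0.11), Prss2 under 500 (0.079) and only mice without STZ (0.13). Without STZ mice the call of Edn3 against alpha cells was lost too (0.32).

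Of 15 tested genes of immature or progenitor cells 2 were higher and 3 lower than in alpha, 2 higher and 5 lower than in beta, and 1 higher and 4 lower than in delta cells. Aldh1a3, a retinaldehyde dehydrogenase, and Dlk1, a Notch-related protein, changed by -6.14 ± 0.83 and -5.47 ± 1.10 against beta cells. Nnat, neuronatin, and Mest, an imprinted gene, changed by -5.17 ± 0.65 and -7.77 ± 0.76 against delta cells. Of 19 cell division genes 6 were lower than in beta cells, among them Mki67 (-3.59 ± 1.12) and Top2a (-3.11 ± 0.99) and 0 passed the test against alpha or delta cells. Both calls were lost with Prss2 under 500 (adjusted p = 0.10 and 0.097) and without STZ_D12 replicate 1 or P21. That of Mki67 was also lost without STZ_D42 or STZ_M2, and that of Top2a without control replicate 1 and by DESeq2 (adjusted p = 0.29). Of 19 oxidative stress genes 3 were higher and 1 lower than in alpha, 1 higher and 3 lower than in beta, and 4 higher and 2 lower than in delta cells, and Prdx1, a peroxiredoxin, was higher by 0.80 ± 0.14 than in alpha and by 0.63 ± 0.15 than in delta cells. The latter call was lost with at least 10 cells per sum (adjusted p = 0.18), a hormone ratio of at least 10 (0.26) and only mice without STZ (log2 change 0.17, adjusted p = 0.81), and the former without STZ (0.26).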
